A study of Mus musculus with 2 samples.

Results

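The regions described here are the dense clusters of Gata3 sites of the TH2 cell genome, taken as every 50-kb tile of chromosomes 1 to 19 that held 5 or more sites. Chromosomes 1 to 19 of the mouse build GRCm38 were cut into 200-bp bins, and the 5′ end of each read, moved 100 bp towards its 3′ end, was counted in its bin. Counts were scaled to 1000000 reads counted in the library (RPM), and a site was a run of touching bins with 0.6 RPM or more in both libraries, which 0.331% of all bins reached. Of 49264 tiles, 10545 (21.4%) held at least 1 site and 306 (0.621%) held 5 or more. These 306 tiles, called dense tiles here, contained 1830 of the 17590 sites (10.4%). The tiles were thus chosen by the signal of both libraries, so their site numbers, spacing and signal are given as a description, with no test.

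Gata3 binding was measured by ChIPmentation, in which chromatin held by an antibody is cut and tagged by a transposase, with the anti-GATA3 antibody D13C9. The 2 libraries, replicates 1 and 2, came from the same condition, splenic mouse TH2 subsets expanded in vitro. The sample labels name TH2 cells as the cell type but ILC2 in their account of the extraction, the genotype and age of the mice were not given in the sources used here, and no library without antibody or with a control antibody was used here. On chromosomes 1 to 19, library 1 held 39287837 reads and library 2 held 24084150, so that 0.6 RPM corresponded to at least 24 and 15 reads in a bin, against means of 3.19 and 1.96 reads per bin. Nothing in the labels says that the 2 libraries came from separate cultures or animals, and their spread may be technical.

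Gata3 is a zinc finger transcription factor that is required for T cell development and for the TH2 programme, including the cytokines IL-4, IL-5 and IL-13. It recognises short sequences around the letters GATA. Genes that define a cell type are often surrounded by several enhancers bound by the same factors, and such groups of binding sites lie in introns and in the space between genes as well as near start sites.

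The number of sites per tile fell steeply. There were 388 tiles with 4 sites, 168 with 5, 66 with 6, 35 with 7, 20 with 8, 9 with 9 and 3 with 10, and 1 tile each with 11, 12, 13, 20 and 22. At the limit, tiles with 4 sites had a median summed site signal of 11.9 RPM in library 1 and 10.8 RPM in library 2, and tiles with 5 sites had 15.7 and 14.8 RPM. The limit therefore cut through a gradual distribution.

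**Figure D1:**
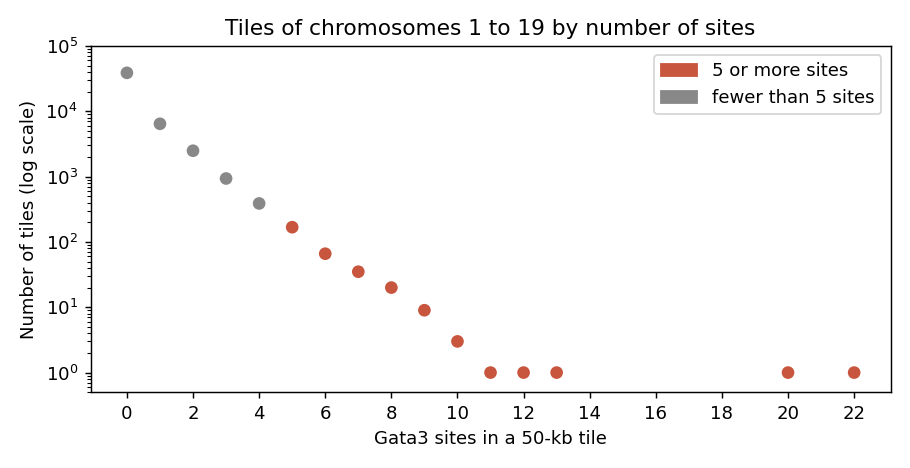
Number of 50-kb tiles (y axis, log scale) against the number of Gata3 sites in the tile (x axis), with 1 point for each number of sites. Red points are the 306 dense tiles and grey points the tiles with fewer than 5 sites, and the 2 tiles with 20 and 22 sites stand apart from the rest.

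Reads of low mapping quality marked 4 of the dense tiles. In these, 15.3% to 98.4% of the reads of library 1 and 13.8% to 97.2% of those of library 2 had less than the highest mapping quality of 44, against 0.489% and 0.623% over chromosomes 1 to 19. In the other 302 tiles the share reached at most 4.81% and 5.60%. The 4 tiles were the neighbouring pair at the Ugt1a gene cluster and at Hjurp on chromosome 1, with 20 and 22 sites, the Sfi1 tile on chromosome 11, with 9 sites, and a tile of predicted genes at chr9:3000001-3050000, with 8 sites. Together they held 59 sites. The low mapping quality share was set at 10% after the values had been seen. With only reads of a mapping quality of at least 30, 305 of all 306 dense tiles still had 5 or more sites. The protein-coding genes in dense tiles then went from 312 to 303, which only the loss of the tile at chr9:3000001-3050000 gives. The Ugt1a, Hjurp and Sfi1 tiles thus remained. The part of reads with a quality between 30 and 44 in the site numbers of these 4 tiles was not tested. The signal, the gaps and the GATA share are given with and without them.

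The sites of the Cytip tile are printed first because this tile, chr2:58150001-58200000, had the most sites, 13, of the tiles with few reads of low mapping quality. Cytip, also called cytohesin-interacting protein, regulates the adhesion of lymphocytes, and the 13 sites all lay in its introns. Each line gives 160 bases around the middle of the tallest bin of a site on the plus strand of GRCm38. The tallest bin of a site was the one with the highest value of the lower library. Capitals mark GATA motifs on either strand, which were the letters AGATAA or the letters AGATAG, and with T as the first base the letters TGATAA or the letters TGATAG. They also mark AP-1 motifs, the letters TGAGTCA or the letters TGACTCA.
Cytip site 1, chr2:58151821-58151980: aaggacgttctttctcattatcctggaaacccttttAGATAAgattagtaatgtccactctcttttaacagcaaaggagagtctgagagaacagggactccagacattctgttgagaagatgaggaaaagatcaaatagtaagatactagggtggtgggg
Cytip site 2, chr2:58153821-58153980: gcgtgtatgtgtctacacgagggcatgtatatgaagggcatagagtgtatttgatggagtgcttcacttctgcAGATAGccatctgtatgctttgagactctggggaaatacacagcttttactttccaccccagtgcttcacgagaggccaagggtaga
Cytip site 3, chr2:58159421-58159580: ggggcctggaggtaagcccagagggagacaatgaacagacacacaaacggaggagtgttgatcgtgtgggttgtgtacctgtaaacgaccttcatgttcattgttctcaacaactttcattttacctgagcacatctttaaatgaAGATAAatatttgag
Cytip site 4, chr2:58161821-58161980: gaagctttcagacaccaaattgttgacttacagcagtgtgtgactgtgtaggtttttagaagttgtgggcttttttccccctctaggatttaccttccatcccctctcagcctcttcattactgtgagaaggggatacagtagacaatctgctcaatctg
Cytip site 5, chr2:58165221-58165380: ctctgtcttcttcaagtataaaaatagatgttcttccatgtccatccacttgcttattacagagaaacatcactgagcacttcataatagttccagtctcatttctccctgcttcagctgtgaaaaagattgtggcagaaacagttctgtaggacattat
Cytip site 6, chr2:58170621-58170780: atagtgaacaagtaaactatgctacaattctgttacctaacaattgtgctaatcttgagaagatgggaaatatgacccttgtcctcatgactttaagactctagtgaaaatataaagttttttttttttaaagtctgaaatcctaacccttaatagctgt
Cytip site 7, chr2:58172621-58172780: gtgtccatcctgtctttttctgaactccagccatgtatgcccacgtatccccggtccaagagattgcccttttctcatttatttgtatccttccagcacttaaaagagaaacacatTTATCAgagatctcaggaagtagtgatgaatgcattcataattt
Cytip site 8, chr2:58173221-58173380: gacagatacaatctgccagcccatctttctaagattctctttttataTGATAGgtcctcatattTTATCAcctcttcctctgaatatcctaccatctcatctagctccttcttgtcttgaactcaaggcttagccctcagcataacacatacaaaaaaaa
Cytip site 9, chr2:58173621-58173780: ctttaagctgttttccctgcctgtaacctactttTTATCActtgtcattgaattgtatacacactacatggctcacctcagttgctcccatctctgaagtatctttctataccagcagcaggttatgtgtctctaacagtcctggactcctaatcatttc
Cytip site 10, chr2:58175221-58175380: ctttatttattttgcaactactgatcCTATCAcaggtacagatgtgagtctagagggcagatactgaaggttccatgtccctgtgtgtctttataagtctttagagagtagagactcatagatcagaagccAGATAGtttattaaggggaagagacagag
Cytip site 11, chr2:58179221-58179380: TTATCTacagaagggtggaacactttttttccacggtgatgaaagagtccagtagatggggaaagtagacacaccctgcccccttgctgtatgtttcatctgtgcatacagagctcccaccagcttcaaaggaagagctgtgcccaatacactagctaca
Cytip site 12, chr2:58180621-58180780: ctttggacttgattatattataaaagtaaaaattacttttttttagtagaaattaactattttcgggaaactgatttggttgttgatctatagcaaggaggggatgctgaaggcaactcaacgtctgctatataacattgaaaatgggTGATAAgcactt
Cytip site 13, chr2:58181421-58181580: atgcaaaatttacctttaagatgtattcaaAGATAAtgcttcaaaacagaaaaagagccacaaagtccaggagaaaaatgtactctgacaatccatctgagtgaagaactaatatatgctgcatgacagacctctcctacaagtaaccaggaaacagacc

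GATA letters stood in 10 of these 13 printed sequences and AP-1 letters in 0. In the 400-bp windows used for all counts below, which take in the tallest bin and 100 bp on either side, all 13 Cytip sites had a GATA motif and 2 had an AP-1 motif. The window of site 12 held 18 GATA copies, more than the other 12 sites, which had 1 to 4. Site 2 was the tallest, with 4.71 RPM in its tallest bin in library 1 and 6.52 RPM in library 2. In library 1, sites 4 and 5 followed with 1.88 RPM each, and in library 2 they had 2.03 and 1.41 RPM. The lowest in library 1, site 13, had 0.636 RPM, and the lowest in library 2, sites 1 and 6, had 0.706 RPM each. The sum over the 13 sites was 48.3 RPM (95% exact Poisson interval 46.2 to 50.5) in library 1 and 53.4 RPM (50.6 to 56.4) in library 2, and sites made up 51.2% and 48.6% of the reads of the tile.

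The Itpr1 tile, chr6:108300001-108350000, is printed as a case with AP-1 letters beside GATA letters at its tallest site. It was picked for these letters and is an example only. In 400-bp windows, 85 of the 306 tiles (27.8%) had an AP-1 motif at their tallest site. Itpr1 encodes a receptor for inositol trisphosphate that releases calcium from the endoplasmic reticulum. All 6 sites lay in its introns, and all 6 printed sequences held a GATA motif.
Itpr1 site 1, chr6:108307021-108307180: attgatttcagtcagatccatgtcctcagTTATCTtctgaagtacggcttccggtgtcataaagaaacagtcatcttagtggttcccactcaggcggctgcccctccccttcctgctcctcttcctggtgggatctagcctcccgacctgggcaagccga
Itpr1 site 2, chr6:108324821-108324980: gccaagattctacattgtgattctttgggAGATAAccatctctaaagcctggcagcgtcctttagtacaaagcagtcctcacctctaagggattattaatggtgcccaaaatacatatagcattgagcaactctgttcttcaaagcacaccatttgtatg
Itpr1 site 3, chr6:108326021-108326180: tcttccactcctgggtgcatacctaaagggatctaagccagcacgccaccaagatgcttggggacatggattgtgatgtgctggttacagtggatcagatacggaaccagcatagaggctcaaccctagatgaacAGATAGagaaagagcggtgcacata
Itpr1 site 4, chr6:108328421-108328580: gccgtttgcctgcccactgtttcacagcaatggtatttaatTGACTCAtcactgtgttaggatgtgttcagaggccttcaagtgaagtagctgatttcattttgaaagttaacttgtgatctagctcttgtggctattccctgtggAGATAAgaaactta
Itpr1 site 5, chr6:108338621-108338780: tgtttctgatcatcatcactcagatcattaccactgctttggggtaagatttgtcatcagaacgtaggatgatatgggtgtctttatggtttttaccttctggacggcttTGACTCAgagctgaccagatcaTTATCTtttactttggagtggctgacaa
Itpr1 site 6, chr6:108340821-108340980: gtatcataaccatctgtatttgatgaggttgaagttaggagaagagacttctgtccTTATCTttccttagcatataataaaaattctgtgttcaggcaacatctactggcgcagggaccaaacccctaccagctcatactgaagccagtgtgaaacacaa

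Sites 4 and 5 held both GATA and AP-1 letters. Site 5, the tallest, reached 4.07 RPM in library 1 and 5.44 RPM in library 2, and site 4 reached 2.52 and 3.07 RPM. Sites 2 and 3, with GATA but no AP-1 motif, reached 2.80 and 2.47 RPM in library 1 and 2.95 and 2.12 RPM in library 2. The summed site signal of the tile was 48.5 RPM (46.4 to 50.8) and 51.3 RPM (48.5 to 54.3).

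The other tiles with the most sites lay at genes of different kinds. At Ets1, a transcription factor of lymphocytes, the tile chr9:32700001-32750000 held 12 sites. All were intronic, 67879 to 112679 bp from the outer start of the gene, the only start counted. Their tallest bins had between 0.611 RPM at site 3 and 3.33 RPM at site 7 in library 1, and between 0.664 RPM at site 1 and 3.24 RPM at site 2 in library 2. The summed signal at Ets1 was 65.2 RPM (62.7 to 67.8) in library 1 and 61.9 RPM (58.8 to 65.1) in library 2, and 9 of the 12 sites had a GATA motif. In library 1, the site with the largest sum held 31.2% of the site signal at Cytip and 17.9% at Ets1, the lowest such share among the 306 tiles.

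The tile at Dad1, chr14:54200001-54250000, held 11 sites, all outside protein-coding genes. T cell receptor gene segments were not counted as such, so a site within one would also count as intergenic here. Dad1 belongs to the enzyme complex that attaches sugars to proteins and lies next to the T cell receptor alpha locus. Its site 10 reached 4.56 and 5.65 RPM, and the other 10 sites had at most 1.58 RPM in library 1 and 1.54 RPM in library 2. The tile of Mapkapk3 and Cish, chr9:107250001-107300000, held 10 sites and 54.3 and 52.6 RPM. Cish, an inhibitor of STAT signalling, had a site 126 bp from its start with 4.25 and 5.19 RPM, and Mapkapk3, a kinase of the p38 pathway, had a second site of similar height in an intron, with 4.28 and 4.90 RPM. This tile was among those with 4 sites at promoters, taken as 2 kb either side of a start site, as was the Ptprc tile with 9 sites.

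**Figure D2:**
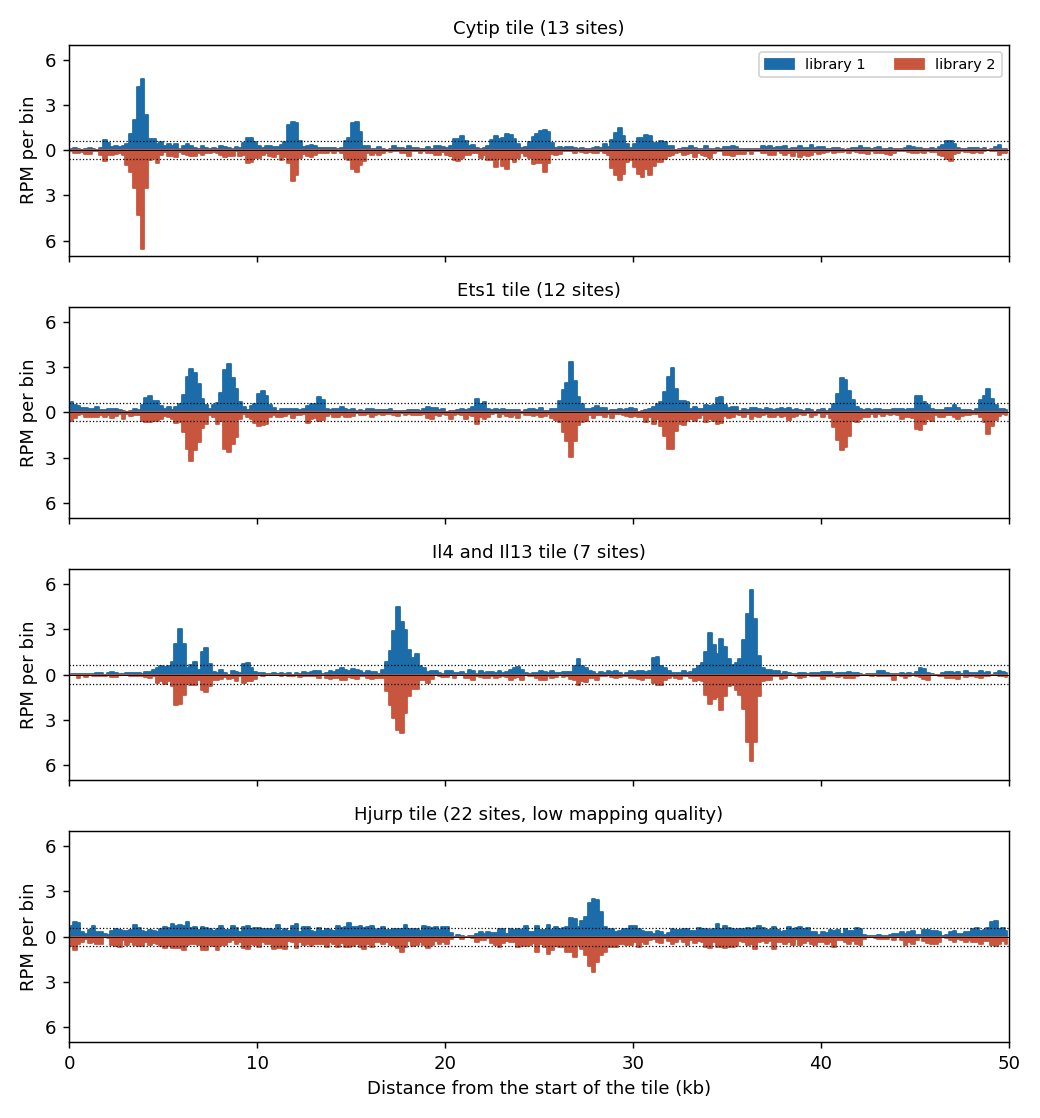
RPM per 200-bp bin (y axis) along 4 dense tiles, against distance from the start of the tile in kb (x axis), with library 1 above and library 2 below the zero line and the threshold of 0.6 RPM dotted. The Cytip, Ets1 and Il4 tiles show separate peaks at the same places in both libraries, and the Hjurp tile shows 1 peak of 2.52 and 2.33 RPM on a long stretch of bins close to the threshold.

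The tile chr15:9550001-9600000, which overlaps Spef2, a gene of sperm flagella, held 10 sites, of which the first 8 lay outside the gene. Its centre lay 44824 bp from the start of Il7r, the receptor for interleukin 7, which was picked out after its values had been seen. Dock10, an activator of small GTPases, had 10 low sites with a sum of 19.3 and 16.9 RPM. Tiles with 9 sites lay, among others, at Ptprc, which encodes CD45, at Mboat1, at Peli1, an E3 ubiquitin ligase, and at 2 places in Inpp4b, a lipid phosphatase. The 9 sites of the Ptprc tile summed to 36.3 and 32.4 RPM, and the 9 of the Peli1 tile to 15.7 and 12.9 RPM. The Peli1 tile, chr11:21150001-21200000, overlapped only the far end of the gene, which ends at position 21150323. The Dock10 tile, with 10 sites, had less signal than the Ptprc tile with 9, so site number and signal did not always rank alike. Tiles with 8 sites lay, among others, at Tg and Sla and at Fignl1 and Ddc, with 42.1 and 43.1 RPM in library 1 and 43.3 and 41.7 RPM in library 2.

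The highest summed site signal was at Sfi1 and Drg1, chr11:3150001-3200000, with 110 and 107 RPM, but 16.3% and 15.5% of the reads there had low mapping quality. Its sites filled 12600 bp and held 92.9% and 93.3% of the reads of the tile. The next was the tile of Il4 and Il13, with Kif3a and Rad50 also overlapping it, chr11:53600001-53650000, in which 7 sites summed to 67.7 RPM (65.1 to 70.3) and 63.6 RPM (60.5 to 66.9). All 7 had a GATA motif, and the tallest, 1598 bp from the Il13 start, reached 5.60 and 5.73 RPM. Ranked by the lower library of each tile, after Ets1, Mapkapk3 with Cish, Itpr1 and Cytip came Mllt3 with 5 sites and 50.1 and 46.3 RPM, Rbpj, the transcription factor of the Notch pathway, with 6 sites and 47.4 and 46.1 RPM, Ikzf1, which encodes Ikaros, with 5 sites and 44.9 and 45.0 RPM, and Fam71a with Atf3, 6 sites and 45.1 and 44.7 RPM.

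Over the 306 tiles, the summed site signal had a median of 18.8 RPM in library 1 (quartiles 13.4 and 27.0, range 4.76 to 110) and of 17.4 RPM in library 2 (12.0 and 25.3, range 4.28 to 107). Without the 4 tiles of low mapping quality the medians were 18.7 and 17.3 RPM. All reads of a tile came to a median of 56.3 and 57.5 RPM, against 20.3 RPM for the mean tile. Sites held a median of 33.2% and 30.6% of the reads of their tile. The bins of dense tiles that belonged to no site had a median of 1.91 and 2.05 times the mean bin of their library, and up to 3.29 and 3.59 times outside the tiles of low mapping quality, in both cases at Ets1. Dense tiles together took 12.1% and 12.2% of the reads in sites, and sites in dense tiles 0.655% and 0.621% of all reads.

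The 2 libraries gave similar signals for most tiles. The ratio of library 2 to library 1 had a median of 0.932 and lay between 0.8 and 1.25 in 268 of 306 tiles (87.6%). The lowest ratio was 0.580, at Xxylt1, with 10.8 and 6.27 RPM, and the highest 1.61, at chr10:118750001-118800000, a tile with no protein-coding gene that had 5.07 and 8.18 RPM. Pearson's r of the log2 site signals across tiles was 0.967 (n = 306), where all points share the same libraries and were chosen for signal in both. The tallest site was the same in both libraries in 236 tiles (77.1%). In library 1 the site with the largest sum held a median of 40.0% of the site signal of its tile. The read names carry a different sequencing instrument for each library, and the libraries and the instruments cannot be told apart.

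**Figure D3:**
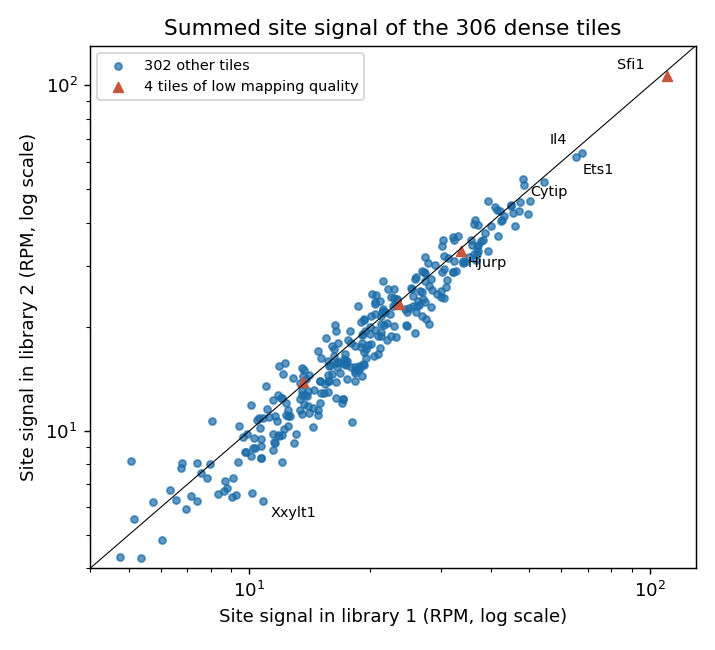
Summed site signal of each of the 306 dense tiles in RPM, library 1 on the x axis and library 2 on the y axis, both on log scales, with the line of equal values. Points lie along the line up to Sfi1 at 110 and 107 RPM. The lowest values, 4.76 RPM in library 1 and 4.28 RPM in library 2, belong to different tiles. Red triangles mark the 4 tiles of low mapping quality.

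Within a dense tile, sites were a few kilobases apart. The 1524 gaps between neighbouring sites of the same tile had a median of 3600 bp (quartiles 1000 and 8400), and the tallest bins of neighbouring sites lay a median of 4000 bp apart. In tiles with 2 to 4 sites, 5521 gaps had a median of 7600 bp (2200 and 17000). The size of the tile bounds the gaps and more sites leave less room, so a smaller gap follows in part from the rule. Gaps of 1 bin made up 143 (9.38%) in dense tiles and 374 (6.77%) in tiles with 2 to 4 sites. Gaps of 1 kb or less came to 26.0% and 16.9%, and gaps over 10 kb to 19.6% and 42.0%. Without the 4 tiles of low mapping quality, the median gap was 3800 bp.

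**Figure D4:**
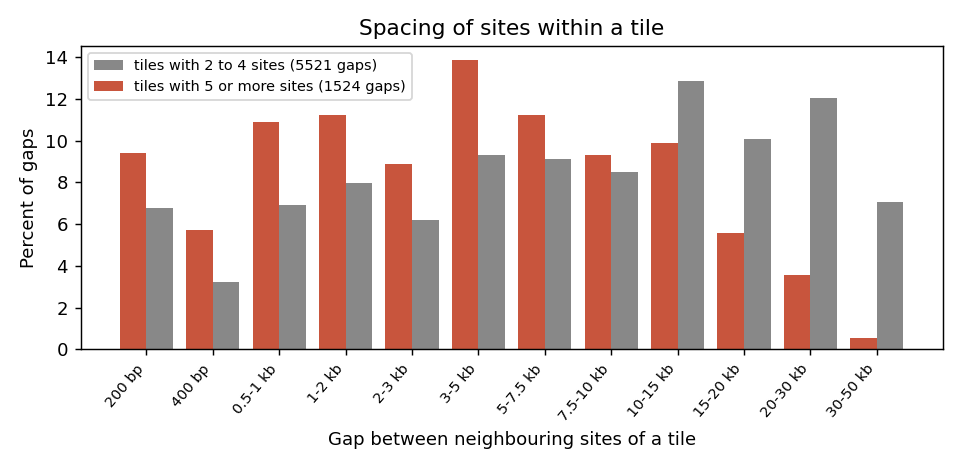
Percent of gaps (y axis) by gap length (x axis, unequal classes) between neighbouring sites of the same tile, for 1524 gaps in dense tiles (red) and 5521 gaps in tiles with 2 to 4 sites (grey). Short gaps of 1 bin took 9.38% and 6.77%, so the short classes are higher in dense tiles and the classes over 10 kb in the others.

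From the first to the last site, a dense tile was occupied over a median of 32300 bp (quartiles 24800 and 39400). In 13 tiles the median gap was under 1 kb. When gaps of up to 4 bins were bridged, the Sfi1 tile went from 9 sites to 1, Hjurp from 22 to 10, the Ugt1a tile from 20 to 11 and Cytip from 13 to 8, whereas Ets1 went from 12 to 10 and the Il4 tile from 7 to 5. By this count 181 of the 306 tiles (59.2%) still had 5 or more sites. A site in a dense tile was a median of 400 bp wide, and 36.1% were a single bin, against 37.7% in tiles with 2 to 4 sites and 41.4% in tiles with 1 site.

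Individual sites in dense tiles were close in height to sites elsewhere. Their tallest bin had a median of 1.15 RPM in library 1 and 0.997 RPM in library 2, the same values as in tiles with 2 to 4 sites, and 1.09 and 0.955 RPM in tiles with 1 site. The upper quartiles were 1.83 and 1.62 RPM in dense tiles, 1.71 and 1.54 RPM in tiles with 2 to 4 sites, and 1.58 and 1.41 RPM in tiles with 1 site.

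The sequence of the sites was not used to choose the tiles. A GATA motif stood in 83.1% of the 1830 windows (95% exact binomial interval 81.3 to 84.8), in 83.5% in tiles with 2 to 4 sites (82.7 to 84.3) and in 85.2% in tiles with 1 site (84.3 to 86.0). It stood in 54.6% of 1227 windows in the middle of gaps of the dense tiles (51.8 to 57.4) and in 60.1% of all windows of the same length on chromosomes 1 to 19. An AP-1 motif, the binding sequence of Jun and Fos proteins, stood in 19.4% of sites in dense tiles (17.6 to 21.3), in 21.1% and 20.4% in the other site classes, in 8.56% of the gap windows and in 6.25% of all windows. Sites of the same tile share their surroundings, and the intervals cover counting error only.

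Motifs of other T cell factors differed less between sites and gaps. The RUNX letters TGTGGT stood in 31.5% of sites and 28.4% of gap windows of the dense tiles, the ETS letters CAGGAA in 39.3% and 39.4%, and the E-box letters CAGCTG in 18.3% and 16.2%, counted on both strands. Among all windows these shares were 26.0%, 34.9% and 14.2%. The GATA letters in reversed order were the letters AATAGA or the letters GATAGA, and with T as the last base the letters AATAGT or the letters GATAGT. They have the same base composition, and the forms that begin with GATA can overlap a GATA motif. They stood in 51.6% of sites, 50.6% of gap windows and 54.0% of all windows. GATA and AP-1 stood together in 15.4% of dense-tile sites, and neither in 12.9%, and 45.8% had 2 or more GATA copies.

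By height, without the tiles of low mapping quality, a GATA motif stood in 79.4% of the 631 lowest sites (0.611 to 0.789 RPM in the lower library), in 85.3% of the 551 middle sites and in 87.1% of the 589 highest (1.27 to 5.60 RPM). AP-1 stood in 14.7%, 21.6% and 23.9%. In other tiles the GATA shares were 84.1%, 83.4% and 85.2%, and those of AP-1 16.6%, 20.2% and 27.3%. The difference in trend between the classes was not tested. In the 4 tiles of low mapping quality, 61.0% of the 59 sites had a GATA motif (47.4 to 73.5) and 3.39% an AP-1 motif (0.413 to 11.7).

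Per tile, 298 of 306 had a GATA motif at 3 or more of their sites and 112 (36.6%) had it at every site. The tile at chr9:3000001-3050000 had it at 0 of its 8 sites, and 98.4% and 97.2% of its reads had low mapping quality. An AP-1 motif stood at 1 or more sites in 212 tiles (69.3%). Such counts per tile depend on the shares per site, 83.1% for GATA and 19.4% for AP-1, and on the number of sites. They were not set against other tiles or windows, and nothing is read from them. The tallest site of a tile had GATA in 266 tiles (86.9%) and AP-1 in 85 (27.8%). Irf2, an interferon regulatory factor, had AP-1 at 5 of 7 sites and GATA at 2, and was picked out after its values had been seen.

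Sites in dense tiles lay mostly in introns and between genes. Only protein-coding genes were counted, each with 1 start, so starts of other transcripts were left out of the promoter shares and distances. Of the 1830, 49.3% were intronic (47.0 to 51.6), 39.8% intergenic, 7.81% at promoters (6.63 to 9.14) and 3.11% in other exons, and without the tiles of low mapping quality these promoter and exon shares were 7.28% and 2.32%. At promoters lay 12.1% of the sites in tiles with 2 to 4 sites (11.4 to 12.7) and 13.6% in tiles with 1 site (12.8 to 14.5), against 3.14% of all bins. Introns took 46.1% and 44.4% in these classes and 35.3% of all bins. Intergenic sites took 37.7% and 37.8% in these classes, and 58.4% of all bins were intergenic. Sites of all 3 classes thus lay between genes less often than bins did. The median distance to the nearest start site was 32394 bp in dense tiles (34407 bp without those of low mapping quality), 25080 bp in tiles with 2 to 4 sites and 27157 bp in tiles with 1 site. The tallest site of the tile was at a promoter in 25 tiles, in an intron in 150, intergenic in 127 and in an exon in 4.

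Protein-coding genes overlapped 237 of the 306 tiles (77.5%), against 56.7% of all tiles, and a start site lay in 134 (43.8%), against 27.7% of all tiles. In 103 tiles a gene body overlapped the tile and no start site lay in it. The dense tiles met 312 of 20780 protein-coding genes (1.5%), 189 of them (0.91%) with their start site. These genes were long, with a median of 58722 bp against 17636 bp for all, and a long gene meets more tiles.

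Of 245 listed genes of T cell function, 40 (16.3%) overlapped a dense tile, beside 1.5% of all protein-coding genes. The listed genes had a median length of 26157 bp. The lists were chosen with results of these data known, and the count is a description. It was 67 (27.3%, beside 2.84% of all protein-coding genes) at a threshold of 0.5 RPM and 19 (7.76%, beside 0.467%) at 0.8 RPM. With library 1 left out it was 78 (31.8%, beside 2.84%), and with library 2 left out 82 (33.5%, beside 4.33%). When gaps of up to 4 bins were bridged, the count was 30 (12.2%, beside 0.924%). The tiles given for 11 of the 40 genes then fell under 5 sites, among them those of Ikzf3, Smad3 and Itgb3. Jak1 was also among the 11, but its other dense tile kept 5 sites. Site numbers given for a gene are those of the dense tiles it overlaps and can include sites outside the gene. Among the TH2 cytokines and their locus, 7 of 13 overlapped a dense tile. Besides Il4, Il13, Rad50 and Kif3a these were Il5, the eosinophil growth factor, with 5 sites and 16.8 and 14.7 RPM, Csf2, which encodes GM-CSF, with 6 sites and 31.2 and 27.4 RPM, and Il10, an inhibitory cytokine, with 5 sites and 6.57 and 6.31 RPM. The Il10 tile thus had as many sites as the Il5 tile with lower signal in both libraries. Il4, Il13, Rad50 and Kif3a share 1 tile, and Il5 lies in the same run of 3 dense tiles. These genes of 1 locus are therefore not separate cases, in this list or among the 40. Of 22 TH2 identity and effector genes, 3 overlapped one. Il2ra, the alpha chain of the interleukin 2 receptor, had 16 sites over 2 tiles, Irf4, a factor induced by T cell receptor signals, had 6 sites with 41.8 and 36.7 RPM, and Ikzf3, which encodes Aiolos, had 5 with 47.0 and 43.3 RPM.

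Of 58 T cell transcription factors, 10 (17.2%) overlapped a dense tile, beside 1.5% of all protein-coding genes. The genes of this list had a median length of 38672 bp, against 17636 bp for all, and a long gene meets more tiles. They included Ets1, Bach2, Ikzf1, Fli1, Egr3 and Id3, with 6 or more sites in a tile, and Tox and Bhlhe40, with 5. Bach2, a repressor of effector genes, had 18 sites over 3 tiles with a sum of 60.4 and 61.0 RPM. Fli1, an ETS factor next to Ets1 on chromosome 9, had 7 sites with 42.7 and 40.7 RPM. Egr3, induced by T cell receptor signals, had 6 sites with 34.1 and 30.6 RPM, and Id3, an inhibitor of E proteins, had 6 with 11.4 and 8.80 RPM. The other two, also with 5 sites, were Tbx21, which encodes the TH1 factor T-bet, with 10.6 and 10.2 RPM, and Jun, a subunit of AP-1, with 6.80 and 8.06 RPM. The factor that was precipitated was not among them, since no dense tile overlapped the Gata3 gene.

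T cell receptor signalling had 6 of 37 genes (16.2%) in dense tiles, beside 1.5% of all protein-coding genes. The genes of this list had a median length of 40718 bp, against 17636 bp for all. Among them, Lcp2, the adaptor SLP-76, had 13 sites over 2 tiles. Thy1, a surface marker of T cells, had 7 sites with 14.0 and 11.8 RPM, Prkcq, a kinase of the immune synapse, had 6 with 16.5 and 15.3 RPM, and Ptpn22, an inhibitory phosphatase, had 5 with 26.6 and 25.4 RPM. Malt1, a protease of NF-κB signalling, had 5 sites with 7.99 and 8.01 RPM.

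Costimulatory molecules, checkpoints and the TNF family had 8 of 28 (28.6%), beside 1.5% of all protein-coding genes. Cd226 and Tnfsf11, which encodes RANKL, had 7 sites each, with 36.3 and 39.7 RPM and 27.2 and 24.0 RPM. Tnfsf8, which encodes the CD30 ligand, Btla, an inhibitory receptor, and Fasl, the death ligand, had 6 each, and Slamf1, Cd48 and Tnfsf4, the OX40 ligand, had 5 each. Cytokine receptors and STAT inhibitors had 3 of 30, which were Cish, Smad3, a mediator of TGF-β signals, and the kinase Jak1. Homing receptors and integrins had 3 of 26, which were Gpr183, a receptor for oxysterols, with 6 sites, S1pr1, the receptor that guides T cells out of lymph nodes, with 5 sites and 27.4 and 28.7 RPM, and Itgb3, the integrin β3 chain, with 5 sites and 11.5 and 12.3 RPM, which became 2 sites when gaps of up to 4 bins were bridged. In the lists of survival and death genes and of mRNA decay, 0 of 15 and 0 of 16 overlapped a dense tile. At 1.5% of all protein-coding genes, lists of this length would hold few or no such genes, and nothing is read from these counts.

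Short lists of markers of other cell types had 0 of 6 B cell genes, 0 of 6 myeloid, 0 of 4 erythroid, 0 of 16 neuronal and 0 of 10 liver genes in dense tiles, beside 1.5% of all protein-coding genes. The neuronal genes had a median length of 881322 bp. Counts of 0 in lists this short are near that background, and nothing is read from them. The assay measures binding, and no cell type was called from these lists.

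In 69 tiles (22.5%) there was no protein-coding gene, and 30 of these held a long non-coding RNA gene. The same share was not counted for all tiles without a protein-coding gene, and nothing is read from the 30. Of the 69 tiles, the one with the most sites, 9, was at chr15:62800001-62850000, with 42.5 and 40.6 RPM. The nearest protein-coding start, that of Myc, lay 839609 bp from its centre. Another with 9 sites, chr2:9550001-9600000, had 38.3 and 35.7 RPM and its centre 315034 bp from the Gata3 start, with 2 further dense tiles of 5 and 6 sites 565034 and 515034 bp away on the same side. The nearest protein-coding start to this tile was that of 4930412O13Rik, at 306252 bp. Tiles with 8 sites lay 101652 bp from Tbl1xr1 (49.7 and 42.5 RPM), 288779 bp from Ets1 (32.5 and 35.7 RPM) and 27120 bp from Il4ra, a chain of the interleukin 4 receptor (17.8 and 19.5 RPM). Of the 8 sites of the last tile, the first 5, with the tallest among them, were nearer to another start than to that of Il4ra. Distance to a start says nothing about which gene a site may act on.

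Dense tiles also lay next to each other. They formed 237 single tiles, 27 runs of 2 and 5 runs of 3. The runs of 3 were at Inpp4b (20 sites), at Celf2, an RNA-binding protein (18 sites), from Il4 through Rad50 to Il5 (17 sites), at Prkch, a protein kinase C (16 sites), and at Mllt3, a reader of histone acylation (16 sites). Their site signals were 65.4, 64.4, 115, 68.0 and 90.0 RPM in library 1 and 60.7, 58.3, 108, 73.2 and 80.0 RPM in library 2. Inpp4b, a gene of 785359 bp, held 2 more dense tiles and in all 35 sites over 5 tiles, with 116 and 107 RPM. Runs of 2 included Ptprc (16 sites), Cd200 (15 sites) and the Gimap gene cluster of GTPases (12 sites), and were picked out after their values had been seen. In the run named for Cd200, the tile with 7 of the sites overlapped no protein-coding gene.

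Sites were also more frequent around dense tiles. Of tiles 50 kb away, 76.1% held 1 or more sites. Leaving out those that were dense themselves, this was 72.9% at 50 kb, 62.9% at 100 kb, 49.0% at 200 kb, 35.7% at 500 kb, 26.4% at 1000 kb and 26.0% at 2000 kb, against 21.4% of all tiles. Around tiles with 2 to 4 sites the shares went from 53.0% at 50 kb to 23.8% at 2000 kb, and around tiles with 1 site from 41.4% to 23.5%. A tile near several dense tiles counts more than once in these shares. By chromosome, the share of tiles that were dense was highest on chromosome 11 (26 tiles, 1.06%) and lowest on chromosome 19 (4 tiles, 0.325%).

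**Figure D5:**
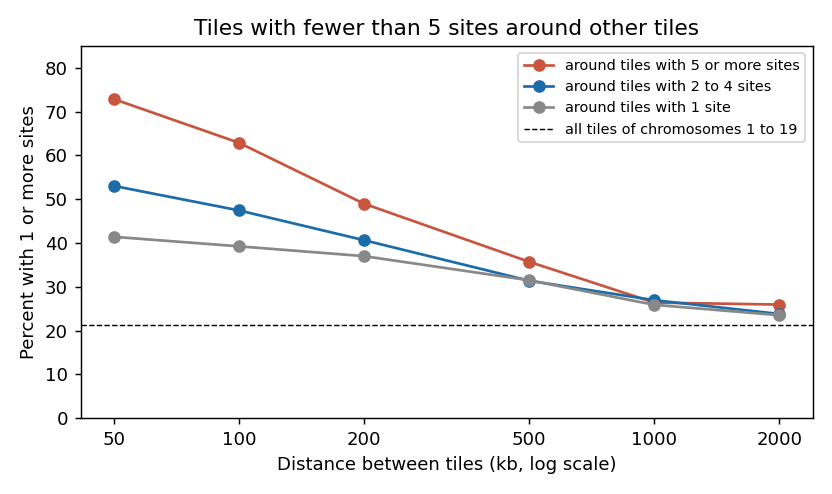
Percent of tiles with fewer than 5 sites that held 1 or more sites (y axis) against their distance in kb (x axis, log scale) from dense tiles (red), tiles with 2 to 4 sites (blue) and tiles with 1 site (grey). The red line falls from 72.9% at 50 kb to 26.0% at 2000 kb, and the dashed line is the 21.4% of all tiles.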

How the data were processed

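Gata3 ChIPmentation libraries, replicates 1 and 2 of 1 condition, were analysed. Per the labels and the study's methods, the authors aligned the reads to GRCm38 with Bowtie2 2.3.5.1 and removed reads without a unique position. The submitters' processing notes also list MACS2 2.1.2, with no role. The authors deposited 1 line per read, whose only number besides position is the mapping quality score (22 to 44 in these files), and no peaks or counts.

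Reads were counted in 200-bp bins with Python 3.11.15, NumPy 2.4.6, pandas 2.3.3 and SciPy 1.17.1. A site belonged to the tile of its midpoint. Site signal is the sum of RPM over its bins, and the median signal of tiles under alternatives uses the lower library. Genes were taken from GENCODE M21. Places and distances used protein-coding genes only, each with the outer end of its annotated span as its start. Of the listed genes, 8 had no gene of that name there on chromosomes 1 to 19 and were left out. A GATA motif was searched in 400-bp windows on both strands, and gap windows needed room for 1 window between sites. All windows are non-overlapping. Intervals are 95% exact Poisson or binomial and cover counting error only. Site finding was tried on simulated data with an even background and planted single-bin sites. Dense tiles have a raised background and wider sites, so this trial does not measure false or split sites in them. Members and gene lists were chosen with earlier results of these data known. The genes named are those of the 20 tiles with the most sites, of the 10 with the highest site signal, up to 8 per list, and the nearest start for the 5 gene-free tiles with the most sites. Of the genes so chosen, 1 is not reported here. Outside this rule, the last members of the transcription factor list, the tiles with the lowest and highest library ratio, the runs of 3 tiles and the genes marked as such in the text were picked after their values had been seen. Choices made after seeing values are named as such. No comparison between conditions, and so no p-value, was possible.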

Additional observations from a re-analysis of the deposited data

Results flagged for a closer look

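The X chromosome was left out of the tiling, and its reads show a signal outside the main measurement. Its 3421 tiles held 345 sites by the same threshold, and 1 of them held 5 sites, a share of 0.0292%, against 0.621% on chromosomes 1 to 19. Reads per bin also depend on the number of X copies in the cells, which was not taken into account. Nothing is read from this difference. The tile with 5 sites, chrX:7550001-7600000, overlaps Foxp3, the factor that defines regulatory T cells, with Ppp1r3f and Ccdc22. Its site signal was 18.8 RPM in library 1 and 19.6 RPM in library 2.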

How the results depend on the processing

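The number of dense tiles changed with the threshold, the limit and the libraries used. It was 554 at 0.5 RPM, 94 at 0.8 RPM, 181 with up to 4 bins bridged, 694 with 4 or more sites, 138 with 6 or more sites, and 604 to 797 with 1 library left out, against 306. The median gap of 3600 bp became 5000 bp with up to 4 bins bridged, 4400 bp with 4 or more sites and 2800 bp with 6 or more, and ranged from 2800 to 3700 bp with 1 library left out. The median site signal in the lower library, 16.6 RPM, was 15.2 RPM at 0.5 RPM, 20.5 RPM at 0.8 RPM, 18.3 RPM with 1 bin bridged, 20.1 RPM with up to 4 bins bridged, 13.2 RPM with 4 or more sites and 21.6 RPM with 6 or more. The share of sites with GATA, 83.1%, was 85.1% at 0.8 RPM, 62.7% in the tallest bin only, 47.7% for AGATAA only, and 79.0% to 82.4% with 1 library left out. A shorter window or fewer motif letters can only lower the GATA share. The cause of the other changes was not tested. Without the 4 tiles of low mapping quality, an alternative chosen after seeing the data, the values were 302 tiles, 3800 bp, 16.6 RPM and 83.8%. Of the 306 tiles, 91 remained at 0.8 RPM and 271 when library 1 was thinned to as many reads as library 2. No paired analysis was possible because no second condition exists. The threshold corresponds to 15 reads in a bin of library 2, and sites below it were not counted.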
